A study of Mus musculus with 6 samples.

Results

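Acetylcholinesterase (Ache) and 9 other genes of cholinergic transmission were compared in N2A cells that had received an shRNA against Pbcas4 and N2A cells that had received a scramble control. The 10 genes are the enzyme of acetylcholine breakdown (Ache), the synthesis and handling genes Chat, Slc18a3 and Slc5a7, the nicotinic receptor subunits Chrna3, Chrna5, Chrna7, Chrnb2 and Chrnb4, and the muscarinic receptor Chrm4. They were chosen by name from 19938 genes represented by probes with exactly 1 gene symbol, with earlier results of these arrays known. The low values of Ache are among the reasons for the choice, so its difference is given as a description and not as an independent finding. Each of the 10 genes had exactly 1 probe annotated with its symbol alone. Probes that carry several symbols were not searched for them.

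N2A is a mouse neuroblastoma cell line, and Pbcas4 is the mouse unitary pseudogene of BCAS4, a gene that still encodes a protein in human. The study asked what happens to the transcriptome when the pseudogene's RNA is reduced. RNA was collected 72 h after transfection from 3 wells that received the Pbcas4 shRNA construct and from 3 wells that received the scramble construct, with lipofection, 4 μg of construct by the study's methods (4 mg in the sample labels) and culture conditions shared by both. Each RNA was hybridised to 1 Affymetrix Mouse Gene 1.0 ST array, and the model is limited to 1 cell line and transient transfection. The probe annotation held 0 symbols with Bcas4, so Pbcas4 itself was not analysed here. One array went against its label in overall likeness: across all probes scramble replicate 1 correlated at 0.990 to 0.993 with the shRNA arrays and at 0.987 to 0.988 with the other scramble arrays. Whether its label is right was not tested, and a wrong label would change every difference given here, so the main values are also given without this array.

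Acetylcholine is made from choline and acetyl-CoA by choline acetyltransferase, loaded into synaptic vesicles, released, and cleaved in the synaptic cleft by acetylcholinesterase, after which choline is taken up again. It acts on nicotinic receptors, which are ion channels built from subunits, and on muscarinic receptors, which signal through G proteins. Sympathetic ganglion neurons, to which neuroblastoma is related, receive cholinergic input through nicotinic receptors that contain Chrna3 and Chrnb4, and neuroblastoma lines are a classical source of acetylcholinesterase.

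The promoter sequences of 3 genes are shown because Ache and Chrm4 are the members whose arrays did not overlap between the constructs and because Prima1, the membrane anchor of acetylcholinesterase, was lower in the same arrays. Each is the 250 bases upstream of the RefSeq start site, 5′ to 3′ on the gene's strand, in build GRCm38.p6. Capitals mark the GC box GGGCGG, read on both strands, which is the recognition sequence of Sp-family factors. The windows lie at chr5:137288004-137288253 on the plus strand (Ache), chr2:91921939-91922188 on the plus strand (Chrm4) and chr12:103242147-103242396 on the minus strand (Prima1).
Ache: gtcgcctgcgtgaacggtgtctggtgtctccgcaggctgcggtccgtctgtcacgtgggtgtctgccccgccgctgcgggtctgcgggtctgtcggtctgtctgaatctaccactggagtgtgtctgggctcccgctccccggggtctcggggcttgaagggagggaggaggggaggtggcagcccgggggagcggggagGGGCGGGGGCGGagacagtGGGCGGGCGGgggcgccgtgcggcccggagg
Chrm4: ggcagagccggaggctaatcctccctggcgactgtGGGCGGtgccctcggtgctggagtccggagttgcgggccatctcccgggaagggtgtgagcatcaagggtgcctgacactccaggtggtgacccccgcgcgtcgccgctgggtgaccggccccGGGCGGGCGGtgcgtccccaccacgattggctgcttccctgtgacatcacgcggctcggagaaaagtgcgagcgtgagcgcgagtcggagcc
Prima1: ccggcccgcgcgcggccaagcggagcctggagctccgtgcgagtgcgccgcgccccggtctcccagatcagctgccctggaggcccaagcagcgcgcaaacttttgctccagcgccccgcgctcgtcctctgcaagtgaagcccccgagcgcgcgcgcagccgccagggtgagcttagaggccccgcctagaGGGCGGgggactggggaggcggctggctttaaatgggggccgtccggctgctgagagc

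All 3 windows are rich in G and C. The Ache window has a GC content of 73.6% and 25 CpG dinucleotides, the Chrm4 window 70.0% and 26, and the Prima1 window 73.2% and 29, against a median of 52.4% and 6 over 32851 RefSeq windows. GGGCGG occurred 4 times in the Ache window, counting overlapping matches, 3 times in the Chrm4 window and 1 time in the Prima1 window, and 32.7% of all windows hold it. Among the 11 windows of the 10 genes (Chrna5 has 2 start sites), 6 held a GC box and 0 held the cAMP response element TGACGTCA, which 1.55% of all windows hold. A match describes the letters only, and the arrays did not measure the binding of any factor.

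Ache, the serine hydrolase that ends the acetylcholine signal, was lower in every array of the Pbcas4 shRNA construct than in every array of the scramble construct. Its log2 values were 9.15, 10.29 and 9.79 in the shRNA arrays (replicates 1, 2 and 3), against 10.67, 11.86 and 11.77 in the scramble arrays. The lowest scramble array stood 0.373 above the highest shRNA array, and replicate 1 was the lowest array of both constructs. The means were 9.74 ± 0.57 in shRNA arrays and 11.43 ± 0.67 in scramble arrays (SD, n = 3 each), a log2 difference of -1.69 (SE 0.40, 95% interval -2.65 to -0.73), or 0.310 of the scramble level (95% interval 0.159 to 0.604). Arrays of the same replicate number differed by -1.52, -1.57 and -1.98. By size this was the third lowest difference of the 19938 genes, while by p-value Ache ranked 313. The limma adjusted p over all 35556 probes was 0.363, so Ache did not pass. An exact two-sided permutation test over the 6 arrays gave p = 0.1, the smallest p that 3 arrays against 3 can give.

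**Figure D1:**
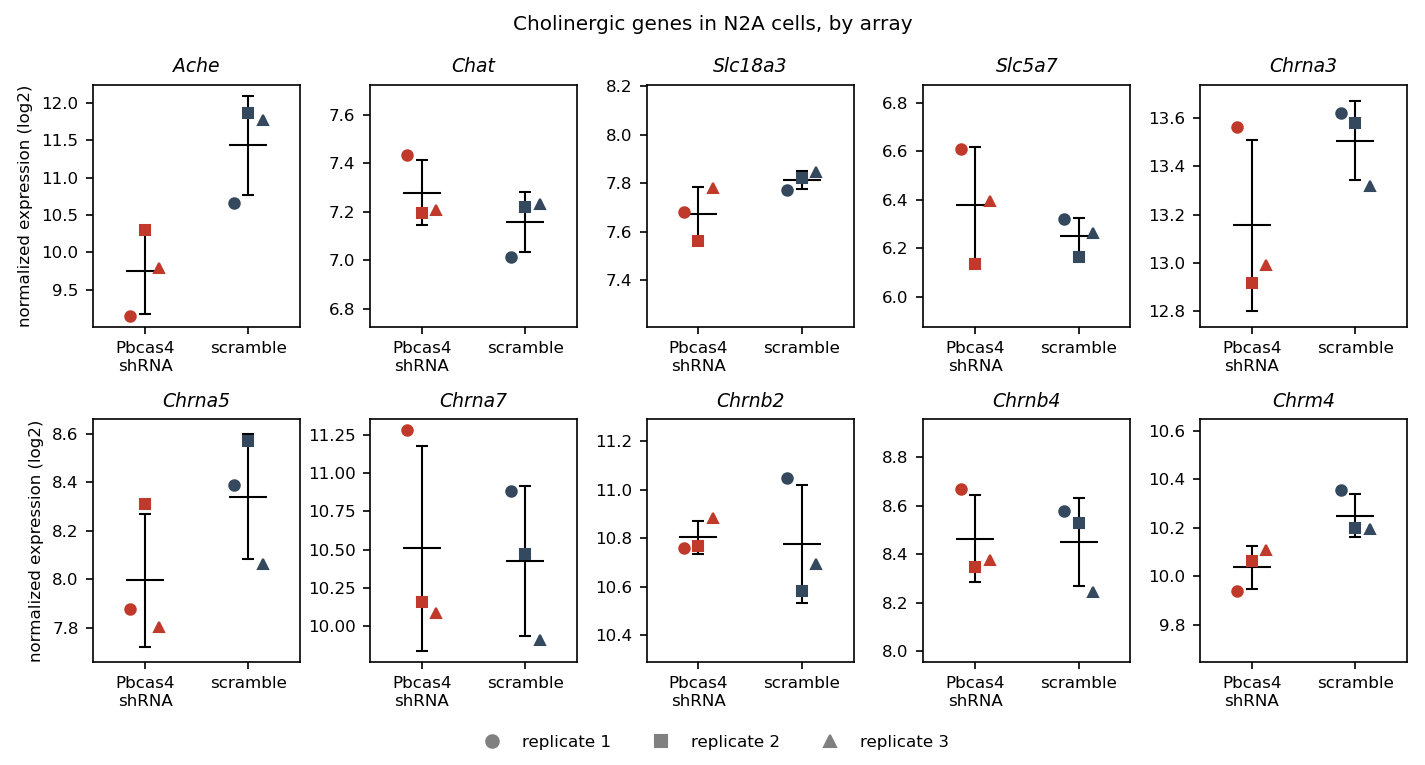
Log2 expression value of each of the 10 cholinergic genes on each of the 6 arrays (points), with Pbcas4 shRNA arrays left of scramble arrays, a horizontal line at each mean, vertical bars of 1 SD (n = 3) and marker shapes for the replicate number. Each panel has its own log2 axis. The arrays of Ache stand apart by 0.373 and those of Chrm4 by 0.087, and the arrays of the other 8 genes overlap.

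The call for Ache changed under 1 of 14 alternative settings. With array weights, in which limma gives arrays that vary less a larger say, the difference was -1.93 with a limma adjusted p of 0.0172, and Ache was then 1 of 10 members called, against 6.62% of all genes. Those weights were 5.32 for shRNA replicate 3, 2.39 for scramble replicate 2 and between 0.353 and 0.875 for the other arrays, and their estimation did not converge. Without scramble replicate 1, whose Ache value was the lowest of the scramble arrays, the difference was -2.07 with a limma adjusted p of 0.0615. Without the same array the difference of Prima1 was -0.57, of Ufsp1 -1.09 and of Rest 1.09, each in the same direction as with it, and that of Chrm4 was -0.16.

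**Figure D2:**
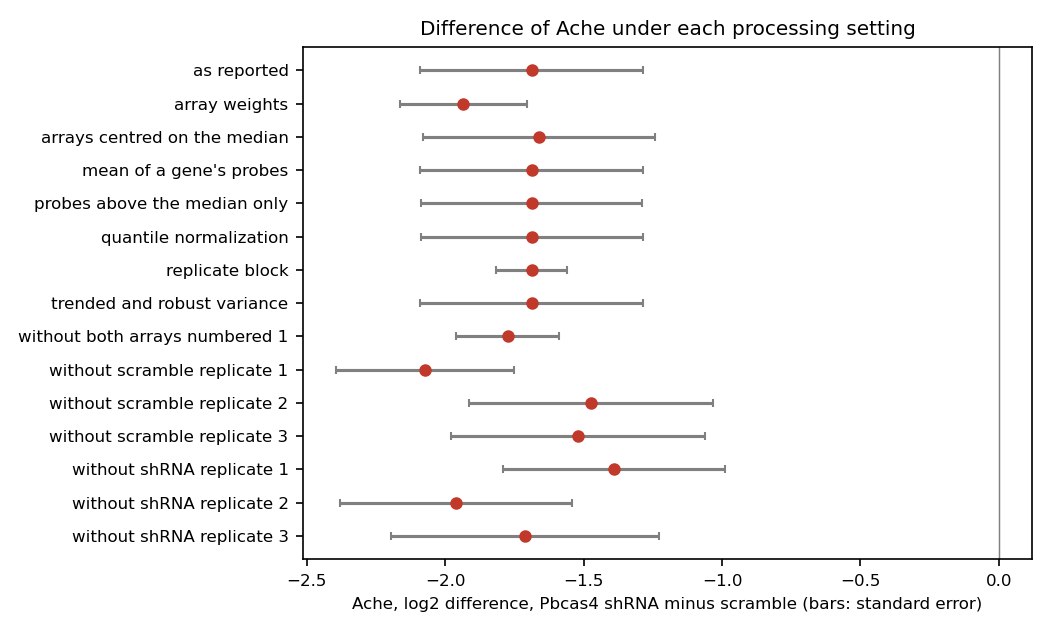
Log2 difference of Ache, Pbcas4 shRNA minus scramble, as reported and under each of 14 alternative settings (points, with standard errors as bars). Every point lies below 0, between -2.07 and -1.39.

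The partners that hold acetylcholinesterase in place were measured beside it. Prima1, the proline-rich anchor that tethers the enzyme to neuronal membranes, had log2 values of 9.34, 9.13 and 9.37 in shRNA arrays, against 9.88, 9.92 and 9.78 in scramble arrays. All 3 shRNA arrays were below all 3 scramble arrays, with a difference of -0.58 (SE 0.10, 95% interval -0.82 to -0.34), or 0.670 of the scramble level, and the limma adjusted p was 0.340. Colq, the collagen tail that anchors the enzyme at the neuromuscular junction, had values of 7.97, 7.66 and 7.72 in shRNA arrays and 7.69, 7.71 and 7.91 in scramble arrays, which overlapped. Bche, the related butyrylcholinesterase, had values of 6.12, 6.11 and 5.96 in shRNA arrays and 6.01, 6.20 and 6.06 in scramble arrays. Bche was below the array median on all 6 arrays and Colq on 4. The differences of Colq and Bche were 0.013 and -0.027, with limma adjusted p of 0.992 and 0.973.

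Ufsp1, which encodes a protease of the ubiquitin-like protein UFM1, is the next gene beyond Ache with a probe and lies on the same strand of chromosome 5. Its log2 values were 9.83, 9.88 and 9.86 in shRNA arrays, against 10.53, 11.02 and 10.88 in scramble arrays. The arrays did not overlap, the difference was -0.95 (SE 0.14, 95% interval -1.28 to -0.63), or 0.516 of the scramble level, and arrays of the same number differed by -0.70, -1.14 and -1.03. The limma adjusted p was 0.340, with an unadjusted p of 0.000281. The next gene with a probe beyond Ufsp1 is Srrt, which encodes a protein of nuclear RNA processing. Its values were 11.62, 10.98 and 11.22 in shRNA arrays and 11.41, 10.68 and 10.42 in scramble arrays, and they overlapped (difference 0.43, SE 0.28, limma adjusted p = 0.682). That difference was 0.72 without scramble replicate 1 and 0.23 without scramble replicate 3. On the other side of Ache the nearest gene with a probe of 1 symbol was Muc3, a mucin, at position -7 from Ache in RefSeq order. Muc3 was below the array median on all 6 arrays and differed by 0.055 (limma adjusted p = 0.936). Farther out, Slc12a9 at position 7 was lower without overlap, against 7.63% of all genes. Its difference was -0.29, with a gap of 0.016 between the groups (limma adjusted p = 0.526). Trip6 at position 6 and Trim56 at position -8 overlapped, with differences of 0.016 and -0.24. RefSeq also places the long noncoding RNA Gm42456 and the microRNA Mir8116 over the Ache gene, and neither had a probe of its own here. Whether the Ache probe reads any of them was not tested.

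The 3 genes of acetylcholine synthesis, vesicle loading and choline uptake had low values, and their arrays overlapped between the constructs. Chat, choline acetyltransferase, had log2 values of 7.44, 7.19 and 7.21 in shRNA arrays, against 7.01, 7.22 and 7.23 in scramble arrays. The arrays overlapped, with a difference of 0.12 (SE 0.11, 95% interval -0.14 to 0.39), and arrays of the same number differed by 0.42, -0.026 and -0.027. Slc18a3, the vesicular acetylcholine transporter, whose gene lies inside Chat, had values of 7.68, 7.56 and 7.78 in shRNA arrays and 7.77, 7.82 and 7.85 in scramble arrays. Its difference was -0.14 (SE 0.09, 95% interval -0.36 to 0.08), larger than the SD of either construct (0.108 in shRNA arrays and 0.038 in scramble arrays), and arrays of the same number differed by -0.091, -0.26 and -0.070. Slc5a7, the high-affinity choline transporter of cholinergic terminals, had values of 6.61, 6.13 and 6.40 in shRNA arrays and 6.32, 6.17 and 6.26 in scramble arrays, a difference of 0.13 (SE 0.13, 95% interval -0.19 to 0.45). The limma adjusted p of these genes lay between 0.682 and 0.847. Chat and Slc5a7 were below the array median, which lay between 7.75 and 7.86, on all 6 arrays, and Slc18a3 was below it on 5. Low signal limits what these probes can show.

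Among the nicotinic subunits, Chrna3, the ligand-binding subunit of the ganglionic receptor, had log2 values of 13.56, 12.92 and 12.99 in shRNA arrays, against 13.62, 13.58 and 13.32 in scramble arrays. Replicate 1 of the shRNA arrays lay within the scramble range and the other shRNA arrays lay below it. The difference was -0.35 (SE 0.19, 95% interval -0.80 to 0.10), and arrays of the same number differed by -0.060, -0.66 and -0.33. It was -0.55 without shRNA replicate 1 and -0.23 without shRNA replicate 2, and with array weights -0.49 with a limma adjusted p of 0.0485, short of the size criterion. Chrna5, an accessory subunit that joins such receptors, had values of 7.88, 8.31 and 7.80 in shRNA arrays and 8.39, 8.57 and 8.06 in scramble arrays. Each shRNA array was below the scramble array of its number (differences -0.51, -0.26 and -0.26), but the groups overlapped (difference -0.34, SE 0.18, 95% interval -0.79 to 0.10). Limma gave adjusted p of 0.608 for Chrna3 and 0.601 for Chrna5. Chrnb4, the partner subunit whose gene sits next to Chrna3 and Chrna5 in a cluster on chromosome 9, had values of 8.67, 8.35 and 8.38 in shRNA arrays and 8.58, 8.53 and 8.24 in scramble arrays. Its difference was 0.01 (SE 0.14, 95% interval -0.31 to 0.34). RefSeq shows Chrna3 and Chrna5 overlapping, and whether the probes share signal was not tested.

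Chrna7, which forms homomeric receptors that pass calcium, had values of 11.28, 10.16 and 10.09 in shRNA arrays, against 10.89, 10.47 and 9.91 in scramble arrays. The array numbered 1 was the highest of each construct, and the difference of 0.08 (SE 0.38, 95% interval -0.82 to 0.99) was smaller than the spread within either construct. Chrnb2, the subunit of the main high-affinity nicotine receptors of brain, had values of 10.76, 10.77 and 10.88 in shRNA arrays and 11.05, 10.58 and 10.69 in scramble arrays. Its difference was 0.03 (SE 0.14, 95% interval -0.29 to 0.35). Limma adjusted p was 0.979 for Chrna7, 0.980 for Chrnb2 and 0.994 for Chrnb4. The direction of Chrna7, Chrnb2 and Chrnb4 turned when single arrays were left out, and that of Chrna7 and Chrnb4 also with array weights.

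Chrm4, the muscarinic receptor that couples to inhibitory G proteins, was the other member whose arrays did not overlap. Its log2 values were 9.94, 10.06 and 10.11 in shRNA arrays, against 10.36, 10.20 and 10.20 in scramble arrays. The gap between the groups was 0.087, and the difference was -0.21 (SE 0.09, 95% interval -0.44 to 0.01), with a limma adjusted p of 0.510. Without both arrays numbered 1 the difference was -0.11. RefSeq shows Chrm4 overlapping Mdk, and Chrnb2 overlapping Adar.

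Counted over the 10 genes, 5 had a lower mean and 5 a higher mean in the shRNA arrays, and the median difference was -0.063, against 0.003 over all 19938 genes, where 9767 means were lower and 10171 higher. With limma, 0 of the 10 genes combined an adjusted p below 0.05 and a log2 difference above 0.5 in size, against 0% of all genes (0 genes, lowest adjusted p 0.297, although 2329 genes had an unadjusted p under 0.05). At an unadjusted limma p under 0.05 with that size, 1 of 10 was lower (Ache), against 1.93% of all genes, and 0 were higher, against 1.79%. The arrays did not overlap for 2 genes lower in shRNA arrays (Ache and Chrm4), against 7.63% of all genes, and for 0 genes higher, against 9.13%. As Ache was chosen with its values known, nothing is read from these shares. The study itself reported differentially expressed genes from these arrays with limma, considering only probes that passed its variance criterion. Why 0 genes were called here was not tested.

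The remaining genes of the cholinergic system were described through 9 lists, 74 genes in all, of which 72 were measured. Their median difference was -0.024, with 43 lower and 29 higher means in shRNA arrays, and limma called 0 of them. Without the adjustment, 1 was lower (Prima1) and 4 were higher (Chka, Chpt1, Gna11 and Rest) with a size over 0.5, against 1.93% and 1.79% of all genes, and 11 of the 72 had an unadjusted limma p under 0.05 at any size, against 11.7% of all genes. The arrays did not overlap for 3 genes lower in shRNA arrays (Prima1, Slc44a3 and Cntfr), against 7.63% of all genes, and for 6 higher (Chka, Chpt1, Lrp4, Gna11, Arrb2 and Rest), against 9.13%. Prima1, Chka, Chpt1, Gna11 and Rest are named because they passed the rule on unadjusted p and size. Slc44a3, Cntfr, Lrp4 and Arrb2 were named after their values were seen. Of these, Lrp4 was below the array median on all 6 arrays and Slc44a3 on 4. The lists were chosen with earlier results of these arrays known, so nothing is read from these shares. Of the 72 genes, 30 were below the array median on all arrays, against 7927 of all 19938 genes. Among these 30 were 10 of the 11 other nicotinic subunits.

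**Figure D3:**
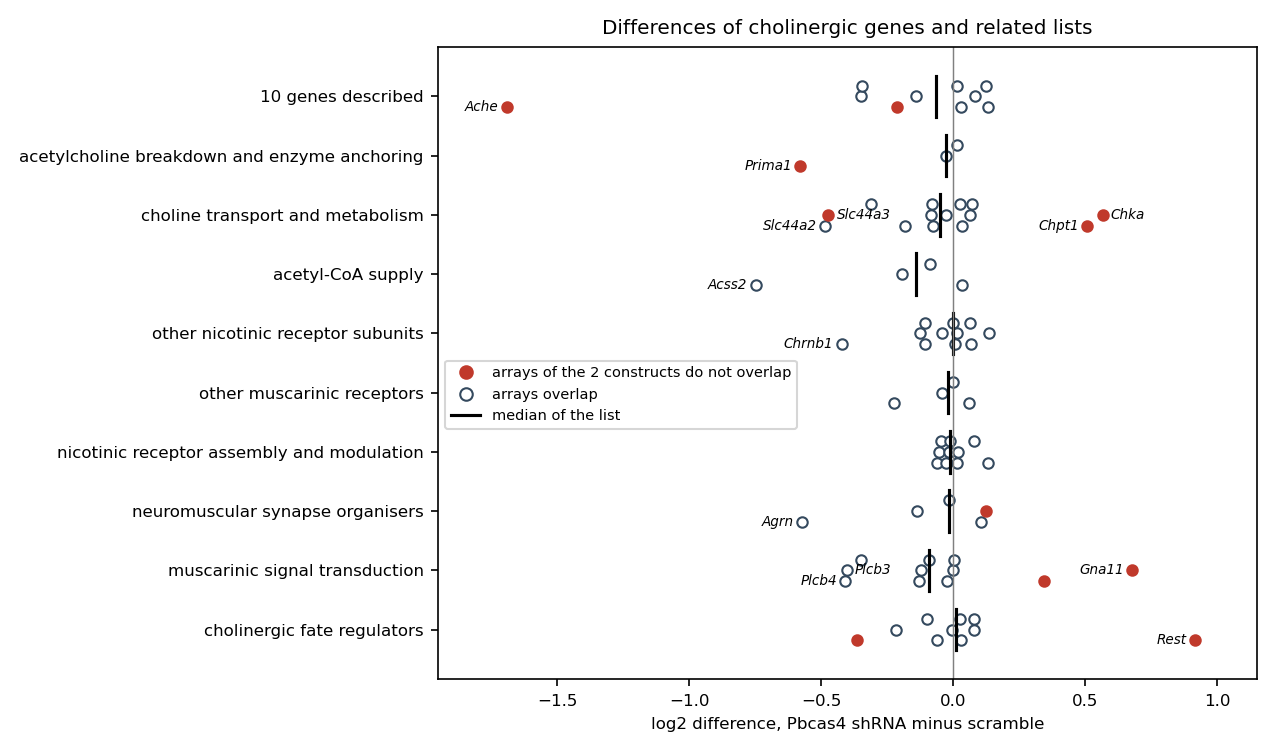
Log2 difference of each gene, Pbcas4 shRNA minus scramble, for the 10 genes and for 9 lists of related genes. Filled points are genes whose arrays do not overlap, black bars are list medians, and names mark differences over 0.4 in size. All list medians lie between -0.14 and 0.01.

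In choline transport and metabolism, 14 genes measured, 8 means were lower and 6 higher in shRNA arrays (median -0.052). Chka, choline kinase alpha, which begins the pathway from choline to phosphatidylcholine, had log2 values of 10.34, 10.11 and 10.14 in shRNA arrays, against 9.84, 9.44 and 9.61 in scramble arrays, a difference of 0.57 (SE 0.13, limma adjusted p = 0.363). Chpt1, choline phosphotransferase at the end of that pathway, had values of 8.45, 8.79 and 8.73 in shRNA arrays and 8.39, 7.97 and 8.10 in scramble arrays (difference 0.51, SE 0.15, limma adjusted p = 0.401). Both were higher in all shRNA arrays than in all scramble arrays. Slc44a3, a choline transporter-like protein, was lower, with 7.56, 7.52 and 7.34 in shRNA arrays, against 7.75, 7.98 and 8.11 in scramble arrays (difference -0.47, SE 0.12, limma adjusted p = 0.383). In acetyl-CoA supply, 3 of 4 means were lower, the largest being Acss2, the cytosolic acetyl-CoA synthetase. It had values of 11.15, 12.32 and 11.85 in shRNA arrays and 12.09, 12.76 and 12.70 in scramble arrays, which overlap (difference -0.75, SE 0.32, limma adjusted p = 0.506). Arrays of the same number differed by -0.95, -0.44 and -0.85, and without shRNA replicate 1 the difference was -0.43. Acly, the ATP citrate lyase that supplies acetyl-CoA from citrate, differed by -0.20 (limma adjusted p = 0.667).

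Among the 11 other nicotinic subunits the median log2 difference was -0.00046, with a range from -0.42 to 0.14. Chrnb1, a subunit of the muscle receptor, had the lowest difference (-0.42, SE 0.17, limma adjusted p = 0.474) and Chrna4, the usual partner of Chrnb2 in brain, the highest. Of the 4 other muscarinic receptors, Chrm1, which couples to phospholipase C, differed by -0.22 and Chrm5 by 0.06. Differences of the 10 genes of nicotinic receptor assembly and modulation ran from -0.063 to 0.13, the highest being Ric3, a chaperone of nicotinic receptors, with Ubxn2a, a UBX-domain protein, at 0.08. In the neuromuscular list, Agrn, the agrin that gathers receptors at the muscle endplate, differed by -0.57 (SE 0.33, limma adjusted p = 0.631). Its values were 10.17, 11.40 and 11.11 in shRNA arrays and 11.12, 11.61 and 11.67 in scramble arrays, and without shRNA replicate 1 the difference was -0.21. Rapsn, the rapsyn scaffold of the receptor, differed by -0.14.

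**Figure D4:**
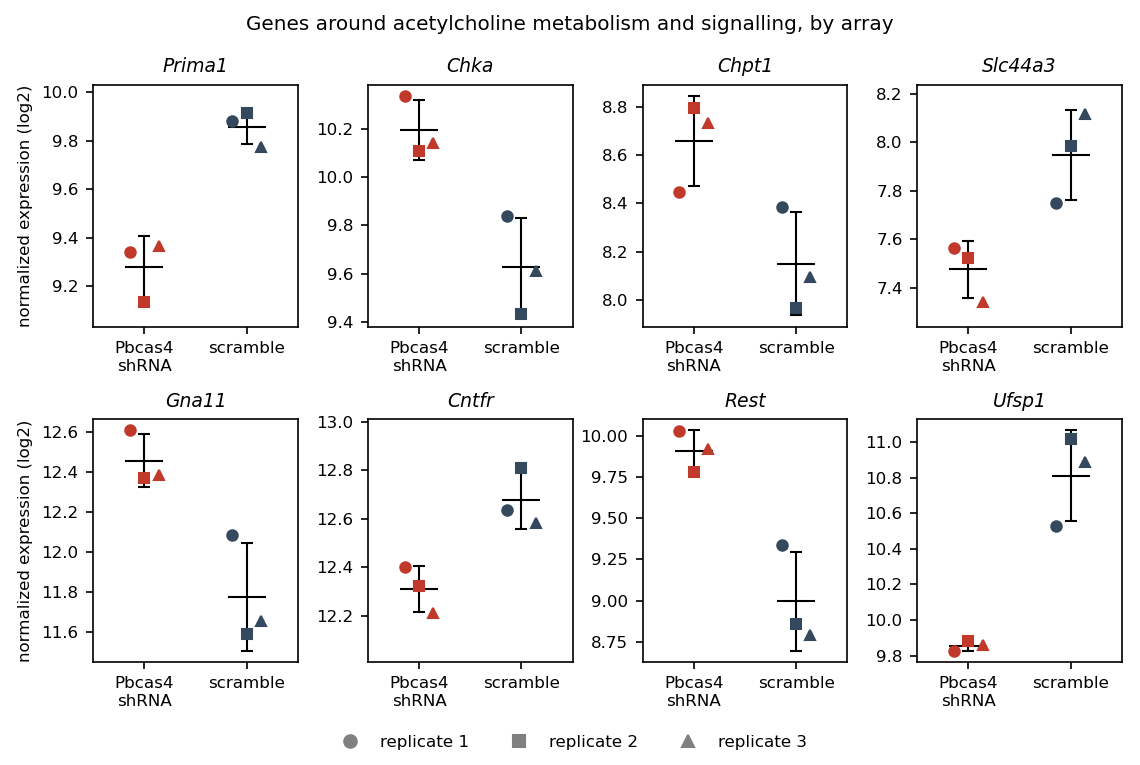
Log2 values of related genes on each array (points), with Pbcas4 shRNA arrays left of scramble arrays, a horizontal line at each mean, vertical bars of 1 SD (n = 3) and marker shapes for the replicate number, on an axis per panel. Prima1, Slc44a3, Cntfr and Ufsp1 lie lower and Chka, Chpt1, Gna11 and Rest higher in the shRNA arrays, without overlap.

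In muscarinic signal transduction, 8 of 11 means were lower and 3 higher in shRNA arrays (median -0.093). Gna11, the G protein subunit that joins muscarinic receptors to phospholipase C, had log2 values of 12.61, 12.37 and 12.39 in shRNA arrays, against 12.09, 11.59 and 11.65 in scramble arrays, a difference of 0.68 (SE 0.15, limma adjusted p = 0.363). Arrb2, the beta-arrestin that helps desensitise receptors, had values of 10.95, 11.16 and 11.15 in shRNA arrays and 10.76, 10.66 and 10.82 in scramble arrays (difference 0.34, limma adjusted p = 0.401). Among 10 regulators of cholinergic fate, 5 means were lower and 5 higher. Rest, a repressor that binds neuronal genes, had values of 10.03, 9.78 and 9.92 in shRNA arrays, against 9.34, 8.86 and 8.79 in scramble arrays. It was the highest difference of the 72 genes, 0.91 (SE 0.16, 95% interval 0.52 to 1.31, limma adjusted p = 0.344). Cntfr, a receptor subunit for ciliary neurotrophic factor, had values of 12.40, 12.32 and 12.21 in shRNA arrays and 12.64, 12.81 and 12.58 in scramble arrays (difference -0.37, SE 0.10, limma adjusted p = 0.396). With array weights limma called 9 of the 72 genes, among them Prima1, Chka, Chpt1, Gna11 and Rest, against 6.62% of all genes.

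The genes whose values ran most like Ache over the 6 arrays, among genes above the median gene, were Ksr2 (Pearson r 0.999, Spearman rho 0.943), Ralgds (0.998 and 1), Cd81 (0.998 and 1), Tmem219 (0.997 and 0.943) and Fam43a (0.997 and 1). Ksr2 is a scaffold of the MAP kinase cascade, Ralgds an exchange factor for Ral and Cd81 a tetraspanin. Their own differences were smaller than that of Ache, at -0.39, -0.56, -0.55, -0.16 and -0.60. Running most opposite were Nol11 (r -0.998, rho -1), Rbm42 (-0.997 and -0.943) and Pspc1 (-0.995 and -0.943). These correlations are descriptions over arrays that form 2 conditions, so a shared difference between the constructs enters each of them. Each was also picked as an extreme among all genes above the median gene, over only 6 arrays. Such picking by itself yields values near 1 and -1, so nothing is read from their size.

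The labelled cell type was checked against marker lists. Sympathoadrenal neuroblastoma markers (8 of 9 measured, 0 below the array median on all arrays) had a mean log2 value of 11.17 to 11.42 over shRNA arrays and 11.65 to 11.97 over scramble arrays, with a median difference of -0.36. The arrays of 2 of the 8 (Th and Chgb) were lower without overlap, against 7.63% of all genes. Dbh had the lowest difference of this list (-1.34, SE 0.46, limma adjusted p = 0.433), but its arrays overlapped. Neuron markers (8 of 8 measured) had a mean of 10.76 to 10.93 in shRNA arrays and 10.96 to 11.24 in scramble arrays, with a median difference of -0.26. The arrays of 2 of these 8 (Stmn2 and Uchl1) were lower without overlap, against 7.63% of all genes. Nefl and Nefm were below the array median on all arrays. Phox2a of the sympathoadrenal list and Nefm and Elavl4 of the neuron list had higher means in shRNA arrays, with overlap (differences 0.055, 0.037 and 0.075). Ache was thus lower in arrays where the means of both lists were lower, and the part of these lists in the Ache result was not tested. Fewer cells of a type and less RNA per cell cannot be told apart in these bulk samples. The mean of the 7 skeletal muscle markers was 8.47 to 8.56 over shRNA arrays and 8.35 to 8.58 over scramble arrays. The mean of the 7 macrophage markers was 6.69 to 6.87 over shRNA arrays and 6.74 to 6.79 over scramble arrays, with 5 of 7 below the array median on all arrays. The means of the fibroblast, glia and epithelium lists overlapped between the constructs as well. Pdgfra was the 1 of 7 fibroblast markers that did not overlap, higher by 0.55, against 9.13% of all genes. Its values were 7.94, 8.39 and 8.21 in shRNA arrays, against 7.49, 7.70 and 7.68 in scramble arrays, and it was below the array median on 3 arrays. Mog was the 1 of 6 measured glia markers that did not overlap, lower in shRNA arrays, against 7.63% of all genes. Its values were 7.39, 7.23 and 7.26 in shRNA arrays, against 7.40, 7.61 and 7.47 in scramble arrays. The gap between the groups was only 0.0033, and Mog was below the array median on all 6 arrays. The marker genes named here were chosen after their values were seen.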

How the data were processed

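N2A cells were profiled on Affymetrix Mouse Gene 1.0 ST arrays (3 Pbcas4 shRNA, 3 scramble). Values used here are log2 expression per probe as deposited by the authors, who normalized them between arrays before deposit. How background was corrected, and how probes were summarized and normalized, is not given in the sources used here. The study's methods state that every RNA had an integrity number of at least 7. No further normalization was applied.

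Of 35556 probes, 21789 carried exactly 1 symbol, 1621 several and 12146 none; 19938 genes had a probe of 1 symbol, and the probe with the highest mean stood for a gene with several. limma 3.58.1 in R 4.3.3 (lmFit, eBayes, two-sided, 1 term for the construct) was fitted on all probes and adjusted over them by Benjamini-Hochberg. Calls required an adjusted p below 0.05 and a log2 difference above 0.5 in size, since the methods' criterion, stated as a variance between conditions above 0.5, was read here as a log2 difference. Intervals are 95%. Single genes were also compared by an exact two-sided permutation test over arrays. The fit was checked on simulated data with independent noise for each probe and array. That simulation held no correlation between arrays and no arrays of unequal spread, so it does not cover them.

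Wells were transfected in triplicate, so each p measures the spread between transfections of 1 line, and precision is limited by how few arrays there are. After the construct means were taken off, arrays with the same replicate number had residual correlations of 0.291, 0.137 and 0.103 over all probes. Each was above 0.1, so a fit with the replicate number as a block was run as an alternative, though neither labels nor methods explain the numbers. All SEs, intervals and p-values come from the fit without the block unless the block is named. shRNA replicate 2 correlated at 0.199 with scramble replicate 3. Alternatives were the replicate number as a block, quantile normalization, centring on the median, array weights, a trended and robust variance, averaging the probes of a gene, leaving out dim probes, other call rules and leaving out arrays.

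The members and lists were chosen with earlier results of these data known. Genes named beside the members are those of the lists with an unadjusted p under 0.05 and a size over 0.5, otherwise up to 2 per list with the largest difference, the 5 genes most like and 3 most unlike Ache, and the neighbours of Ache. Others are named as chosen after their values were seen. Chkb and Grk2 did not match a measured gene. Promoter windows come from RefSeq, build GRCm38.p6. Neighbouring and overlapping genes were found from RefSeq gene positions, which are not printed here. Computations used Python 3.11.15, pandas 2.3.3, scipy 1.17.1 and matplotlib 3.10.9.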

Additional observations from a re-analysis of the deposited data

How the results depend on the processing

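With limma at the adjusted threshold, 0 of all genes, 0 of the 10 cholinergic genes and 0 of the 72 related genes were called. Array weights gave 1320, 1 and 9, and an unadjusted p under 0.05 with a size over 0.5 gave 740, 1 and 5. Every other alternative, leaving out each array included, gave 0. The Ache difference of -1.69 became -1.93 with array weights (adjusted p 0.0172), an estimate that did not converge. Over the leave-one-out fits it lay between -2.07 and -1.39 (adjusted p 0.0615 to 0.866), and without both arrays numbered 1 it was -1.77 (SE 0.19, adjusted p 0.0891). With the replicate block it stayed at -1.69 (SE 0.13, adjusted p 0.230), and the block changed no call. Directions turned for Chat (-0.026 without both arrays numbered 1), for Chrm5 (-0.076 without scramble replicate 2, leave-one-out up to 0.15), for Chrna7 (-0.20 with array weights, -0.070 without both arrays numbered 1, leave-one-out -0.30 to 0.32, turned without scramble replicate 3 or shRNA replicate 1) and for Chrnb4 (-0.072 with array weights, -0.026 without both arrays numbered 1, leave-one-out -0.091 to 0.077, turned without the same arrays). Chrnb2 ranged from -0.067 to 0.16 over leave-one-out fits, turning without scramble replicate 2 or 3 or shRNA replicate 3. Differences near 0 also turned for Bche (leave-one-out -0.066 to 0.027), Colq (-0.026 with array weights, -0.12 without both arrays numbered 1, leave-one-out -0.079 to 0.082) and Muc3 (-0.032 without both arrays numbered 1, leave-one-out -0.0070 to 0.12). The cause was not tested. Leaving out single arrays moved the difference by over 1.5 times for 8 of the 10 cholinergic genes (Ache and Chrm4 were the exceptions) and for 13 of 32 other named genes. Among them Slc18a3 lay between -0.19 and -0.084, Slc5a7 between 0.016 and 0.25 and Chrna5 between -0.50 and -0.23. The rest of the 10 and of these 32 genes kept their direction under all alternatives that gave them a value. The marker genes and the neighbours Slc12a9, Trip6 and Trim56 were not followed through the alternatives. A filter on probes below the median gave no value for Chat, Slc18a3, Slc5a7 and some related genes, and dim probes limit what can be seen of them.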
